A study of Mus musculus with 11 samples.

Results

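Apoa1 and Apoa2 encode apolipoprotein A-I and apolipoprotein A-II, the main proteins of high-density lipoprotein (HDL). Both were followed in mouse liver across a high-fat diet, a fast after that diet, and ordinary chow. Their spots were found by gene symbol in the array's probe table. Each symbol had a single spot on the array, so the set holds 2 of the 3558 genes that could be tested.

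Apolipoprotein A-I is secreted mainly by hepatocytes and enterocytes. It takes up phospholipid and cholesterol from the transporter ABCA1, and it activates LCAT, the plasma enzyme that esterifies the cholesterol of the young particle. Apolipoprotein A-II is made mainly in the liver, sits on the same particles and affects how lipases and receptors handle them. Loss of either protein lowers plasma HDL cholesterol in mice.

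The study's fasted group was 4 mice held on a high-fat diet for 10 weeks and then deprived of food for the last 48 h. Its high-fat group was 5 mice on that diet without a fast, and its control group was 9 mice on chow. The high-fat diet is given as 42.16% fat, 42.81% carbohydrate and 15.02% protein, at 4.53 kcal per g. The chow is given as 6.5% fat, 49% carbohydrate and 23% protein, at 3.5 kcal per g. Whether these percentages are of weight or of energy is not known here, and the basis may differ between the diets. The fat shares of the diets are therefore not directly comparable. The strain is written as C57/BL/6J or in a near variant of it, with none named on the label of high-fat mouse 4. Neither sex nor age is stated in the sources used here. No group was fasted after chow, so the fast is seen only on top of the high-fat diet.

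Arrays were present for 3 fasted, 4 high-fat and 4 control mice, 1 mouse per array. Liver cDNA carried the dye Cy5 and a commercial mouse reference RNA the dye Cy3 on every array, with no swap of dyes. Each value is a log ratio of liver over that reference, read here as log2 because the base is not stated, and centred on the median of its array. A value of 0 is therefore the level of the middle gene of that array. A value of 1 is a liver-to-reference ratio 2-fold above that of the middle gene. Between 3864 and 5567 of 17280 spots held a value on the 10 arrays used, which correlated with each other at 0.69 to 0.94. High-fat array 4 correlated with those 10 at -0.03 to 0.01 and held no value for either apolipoprotein, so it was left out. The spread of an array's values (median absolute deviation) was 0.44 to 0.49 in fasted, 0.26 to 0.39 in high-fat and 0.43 to 0.52 in control arrays. The high-fat results depend on whether arrays are brought to one spread, so values of both apolipoproteins are given both ways. For other genes a difference is given with one spread where its direction or call was not kept.

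The promoters are shown because both are liver genes that factors bound close to the start are known to control. Each window is the 250 bases before a RefSeq start in the mouse build GRCm38.p6, plus strand. Apoa1 lies at chr9:46228630-46230469, between Sik3 and Apoc3, and its window is chr9:46228380-46228629. Apoa2 lies at chr1:171221564-171226379, between Tomm40l and Fcer1g, and has 2 starts in RefSeq. The window shown for it is chr1:171224804-171225053, before the downstream start. Capitals mark matches to motifs of hepatocyte factors.
Apoa1: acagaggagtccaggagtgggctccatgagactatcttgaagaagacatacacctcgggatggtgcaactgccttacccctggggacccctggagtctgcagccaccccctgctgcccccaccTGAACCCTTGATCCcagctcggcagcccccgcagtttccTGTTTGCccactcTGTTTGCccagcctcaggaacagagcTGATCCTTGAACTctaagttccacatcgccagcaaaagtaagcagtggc
Apoa2: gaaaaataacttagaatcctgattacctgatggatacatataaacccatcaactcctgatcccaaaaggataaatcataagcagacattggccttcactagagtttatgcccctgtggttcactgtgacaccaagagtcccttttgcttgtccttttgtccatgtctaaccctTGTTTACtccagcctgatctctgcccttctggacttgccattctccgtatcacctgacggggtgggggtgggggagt

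The searched letters were NGNTCA repeated in the same direction with 1 or 2 free bases between the copies for nuclear receptor direct repeats, TGTTTNC for the forkhead core, TTGCGCAA for the C/EBP palindrome and CACGTG for the E-box bound by USF. The HNF1 site was GTTAAT, 1 free base and the reverse complement of GTTAAT. Both strands were searched, and no matches overlapped. In the Apoa1 window, TGATCCTTGAACT matched the repeat with 1 base between, on the minus strand, from 49 to 37 bases before the start. TGAACCCTTGATCC matched the repeat with 2 bases between, also on the minus strand, from 127 to 114 bases before it. The forkhead core lies between these repeats, as TGTTTGC at 88 to 82 and again at 75 to 69 bases before the start. The Apoa2 window held the forkhead core once, as TGTTTAC, from 77 to 71 bases before the start. The window before the upstream Apoa2 start held none of the motifs. Over windows of the same length before 32851 RefSeq starts, the repeat with 1 base between was found in 1.01%, the repeat with 2 bases between in 0.886%, and the forkhead core in 17.8%. The E-box was in 6.02%, the C/EBP palindrome in 0.164% and the HNF1 site in 0.00913% of starts, and neither apolipoprotein's window held these. The motifs were chosen with the sequences in view, no binding was measured, and a match is only a description of the letters.

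On the centred scale, Apoa1 was lower in livers of mice on the high-fat diet than in livers of mice on chow, about 2-fold. Its centred values after the fast lay within the range of the high-fat arrays. On the fasted arrays Apoa1 had centred log2 ratios of 1.37, 1.47 and 1.63. The high-fat arrays had 1.03, 1.26 and 1.88. The control arrays had 2.40, 3.08, 2.15 and 1.95. Every fasted and every high-fat array lay below every control array, although high-fat array 3, at 1.88, lay just under control array 4, at 1.95. The means were 1.49 ± 0.13 (SD, n = 3) in fasted, 1.39 ± 0.44 (n = 3) in high-fat and 2.40 ± 0.49 (n = 4) in control livers.

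**Figure D1:**
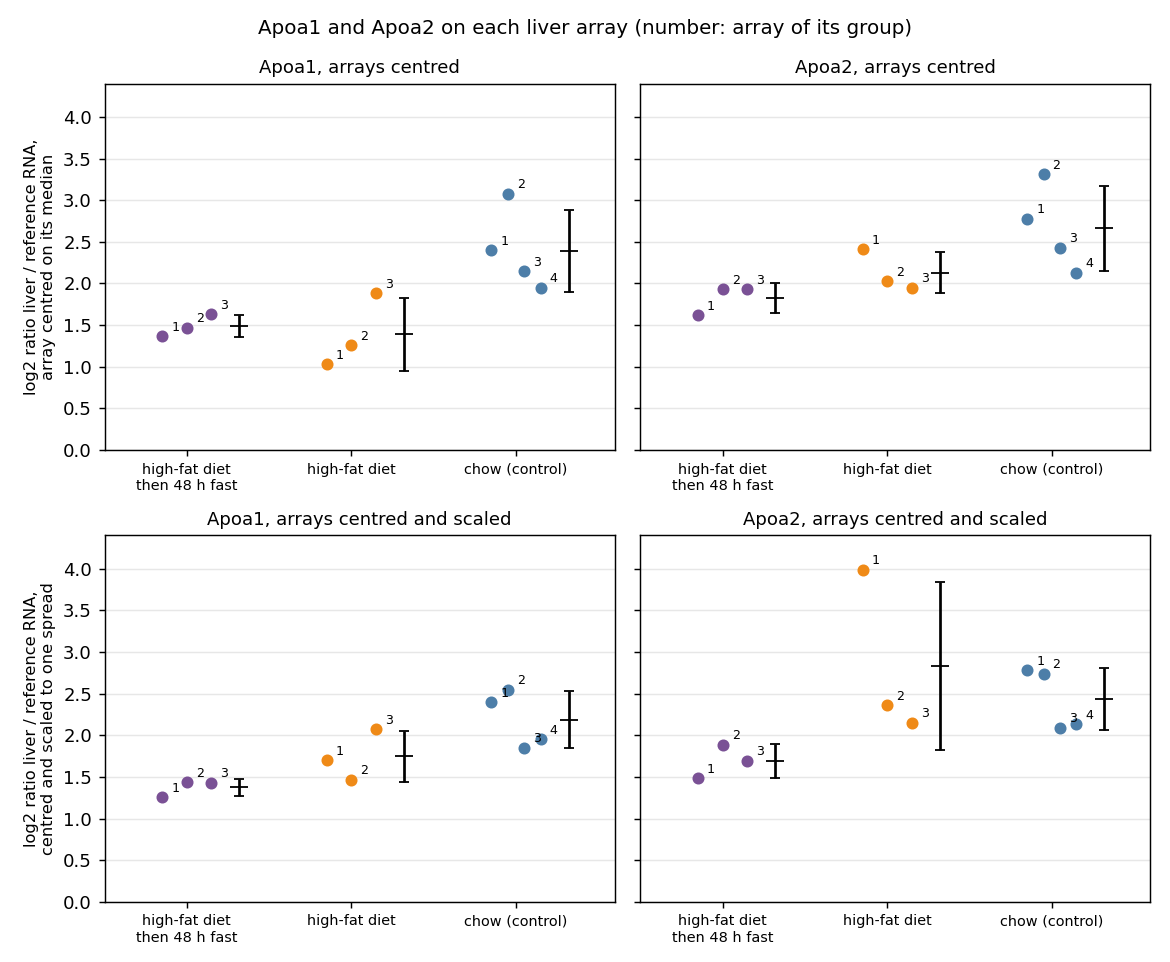
Centred log2 ratio of liver over reference RNA for Apoa1 (left) and Apoa2 (right) on each array, centred (top) and also brought to one spread (bottom), with fasted, high-fat and control groups from left to right; points are numbered arrays, and bars show the group mean and SD. All centred Apoa1 points of the fasted and high-fat groups lie at 1.88 or lower, and all control points at 1.95 or higher.

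Between high-fat and control livers, Apoa1 fell by 1.01 on the log2 scale (SE 0.26, 95% interval -1.57 to -0.44), a 2.01-fold lower ratio. The adjusted p was 0.0480 in limma over all 3558 genes. The exact two-sided permutation test over arrays gave 0.0571, the smallest p that 3 against 4 arrays allow. In that comparison limma called 1.97% of genes lower, and 8.77% of genes were lower with no overlap between the groups. The call was close to its threshold: it was lost in 15 of 19 alternative settings, over which the adjusted p ran between 0.0330 and 0.246. Of the arrays left out in turn, only the fit without control array 4 kept it. With arrays brought to one spread the difference was -0.44 (adjusted p = 0.246 by limma).

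Between fasted and high-fat livers, Apoa1 differed by 0.10 (SE 0.28, 95% interval -0.50 to 0.70, adjusted p = 0.897 by limma), and the groups overlapped. limma called 0.365% of genes in this comparison, neither apolipoprotein among them. The interval holds differences of up to 0.70 upward and 0.50 downward, so the result does not show that the groups were alike. The sign of the difference was negative with one spread, at -0.37, and -0.08 without high-fat array 1.

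Between fasted and control livers, the Apoa1 difference was -0.91 (SE 0.26, 95% interval -1.47 to -0.34), with an adjusted p of 0.0814 by limma. The groups did not overlap, and the exact permutation p was 0.0571, again the smallest possible. Here limma called 1.04% of genes lower, and 9.58% of genes were lower with no overlap. The call was reached without control array 4 (adjusted p = 0.0464 by limma). This comparison and that of high-fat with control livers share the 4 control arrays.

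Apoa2 had its lowest values after the fast, and its high-fat and control values overlapped. The fasted arrays had centred log2 ratios of 1.62, 1.93 and 1.93. The high-fat arrays had 2.41, 2.03 and 1.95. The control arrays had 2.78, 3.31, 2.43 and 2.13. Every fasted array was below every high-fat and every control array, although fasted arrays 2 and 3, at 1.93, lay just under high-fat array 3, at 1.95. High-fat array 1 lay inside the control range. Group means were 1.83 ± 0.18 (SD, n = 3) in fasted, 2.13 ± 0.25 (n = 3) in high-fat and 2.66 ± 0.51 (n = 4) in control livers.

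None of the 3 comparisons called Apoa2. The difference between high-fat and control livers was -0.53 (SE 0.24, 95% interval -1.05 to -0.01, adjusted p = 0.188 by limma, exact permutation p = 0.114). Between fasted and high-fat livers it was -0.30 (SE 0.26, 95% interval -0.86 to 0.25, adjusted p = 0.593 by limma). The exact permutation p was 0.1, the smallest that 3 against 3 arrays allow, and 17.7% of genes were lower with no overlap in that comparison. The largest difference was that between fasted and control livers, -0.84 (SE 0.24, 95% interval -1.36 to -0.32), a 1.78-fold lower ratio. Its adjusted p was 0.0823 by limma and its exact permutation p 0.0571. It was called without control array 4 (adjusted p = 0.0295 by limma). On arrays brought to one spread it was -0.75 (95% interval -1.56 to 0.07, adjusted p = 0.364 by limma). With one spread the high-fat difference from control had the opposite sign, 0.40, and the difference between fasted and high-fat livers was -1.14 (adjusted p = 0.411 by limma), with high-fat array 1 alone at 3.99.

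**Figure D2:**
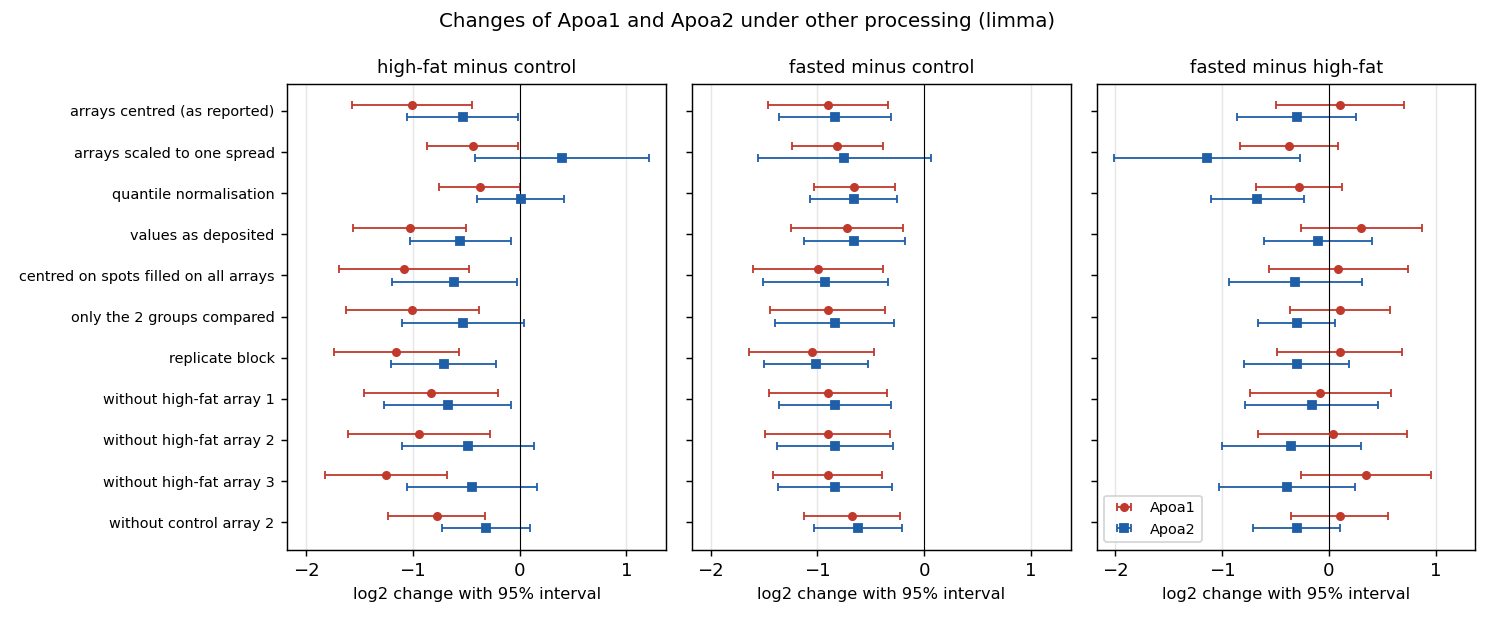
Log2 difference of Apoa1 (red circles) and Apoa2 (blue squares) with its 95% interval in limma, 1 panel per comparison, in rows for the reported fit, 6 other settings and 4 fits without 1 array. Apoa1 is below 0 in every row for high-fat minus control, and the settings with one spread or quantile normalisation lie at -0.44 and -0.37.

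Because fasted and high-fat mice ate the same diet for 10 weeks, the 6 arrays of both groups were also set together against the 4 control arrays, a comparison added after seeing the data. Apoa1 averaged 1.44 ± 0.30 (SD, n = 6) in the mice that had eaten the high-fat diet and 2.40 ± 0.49 (n = 4) in control mice. It fell by 0.96 (SE 0.22, 95% interval -1.43 to -0.48), a 1.94-fold lower ratio, with an adjusted p of 0.0268 by limma. The exact permutation p was 0.00952, the smallest that 6 against 4 arrays allow. The 6 arrays had already been seen below the 4 control arrays for Apoa1, so this p was fixed beforehand. The p-values of this added comparison, here and below, therefore only describe the arrays. limma called 3.26% of genes lower in this comparison, and 4.08% were lower with no overlap. The call was lost with one spread, at -0.63 (adjusted p = 0.0607 by limma), and after quantile normalisation, at -0.51 (adjusted p = 0.0589). It was also lost without control array 1, fasted array 1, fasted array 2 or high-fat array 2 (adjusted p up to 0.0574). Apoa2 averaged 1.98 ± 0.25 (n = 6) and 2.66 ± 0.51 (n = 4) in the same groups. Its difference was -0.68 (SE 0.20, 95% interval -1.12 to -0.24), with an adjusted p of 0.0576 by limma and an exact permutation p of 0.0190. The groups overlapped, and without control array 4 Apoa2 was called (adjusted p = 0.0270 by limma). Its difference was only -0.17 with one spread (adjusted p = 0.808 by limma) and -0.32 after quantile normalisation (adjusted p = 0.255 by limma).

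Bringing the arrays to one spread raised the values of both genes on the high-fat arrays. It lowered them on the fasted arrays and on control arrays 2 and 3, and left control arrays 1 and 4 unchanged. Apoa1 then had 1.25, 1.44 and 1.43 on fasted arrays, 1.70, 1.46 and 2.07 on high-fat arrays, and 2.40, 2.55, 1.85 and 1.95 on control arrays. The fasted arrays lay below all control arrays, as for 9.87% of genes on this scale, and high-fat array 3 was inside the control range. Unlike on the centred scale, the fasted arrays also lay below all high-fat arrays, at 1.44 against 1.46 where closest. Apoa2 then had 1.48, 1.89 and 1.69 on fasted arrays, 3.99, 2.36 and 2.15 on high-fat arrays, and 2.78, 2.74, 2.09 and 2.13 on control arrays. The fasted arrays again lay below every control array and every high-fat array, and 1 high-fat array lay above all control arrays. How many of all genes had fasted below all high-fat arrays on this scale is not given here. That share was 17.7% on the centred scale and 14.0% by rank, so such separation was common.

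A gene's place among the genes with a value on its array does not depend on centring or spread. It does depend on which genes were filled, 3789 to 5422 per array, by a filter that is unknown. Apoa1 stood at the 96.3, 96.4 and 95.7 percentiles of the fasted arrays, the 96.3, 96.7 and 98.8 percentiles of the high-fat arrays, and the 99.1, 99.1, 97.9 and 98.5 percentiles of the control arrays. It was thus among the genes with the highest ratios on every array, and lower in rank on every fasted array than on any control array, as were 6.94% of genes. The difference was -2.52 points between fasted and control livers (exact permutation p = 0.0571, the smallest possible) and -1.38 points between high-fat and control livers (exact p = 0.171). Over the 6 arrays of the high-fat diet it was -1.95 points (exact p = 0.0286).

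Apoa2 stood at the 97.6, 98.1 and 97.1 percentiles of the fasted arrays, the 99.7, 98.9 and 99.0 percentiles of the high-fat arrays, and the 99.5, 99.5, 99.0 and 99.0 percentiles of the control arrays. The fasted arrays were below all others; by rank, 14.0% of genes were lower with no overlap against high-fat arrays and 6.94% against control arrays. By rank, Apoa2 differed by -1.58 points between fasted and high-fat livers (exact permutation p = 0.1, the smallest possible) and by -1.64 points between fasted and control livers (exact p = 0.0571, the smallest possible). The high-fat and control ranks differed by -0.0616 points (exact p = 0.971). For both high-fat diet groups together the difference from control was -0.85 points (exact permutation p = 0.181).

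**Figure D3:**
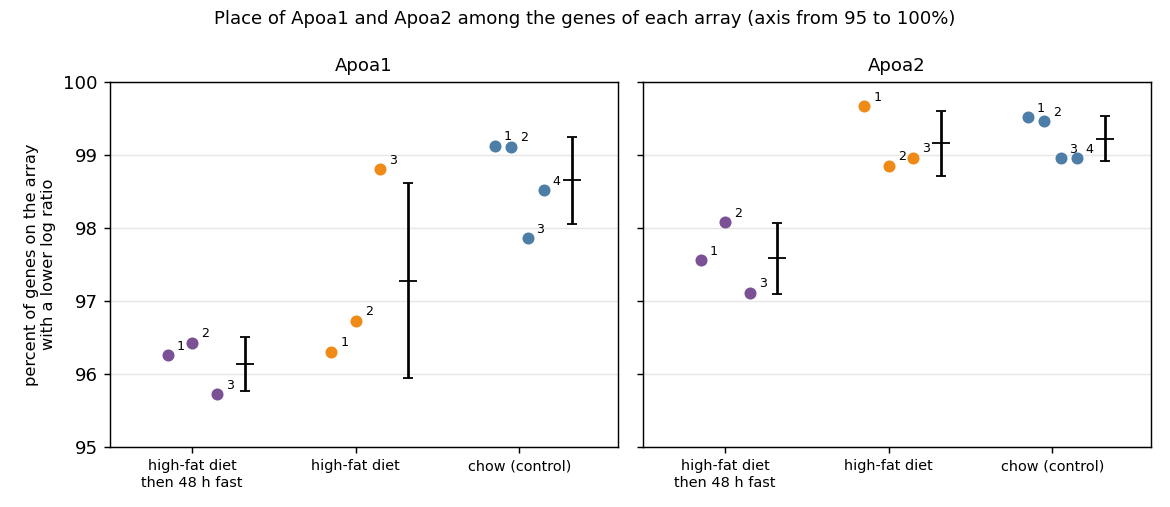
Percentile of Apoa1 and Apoa2 among all genes with a value on the same array, with fasted, high-fat and control arrays from left to right. Both genes stand above the 95th percentile throughout, and the fasted arrays are the lowest for Apoa2.

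Set against each other on the same array, the 2 apolipoproteins kept a difference of narrow range in fasted and control livers and of wider range in high-fat livers. Apoa1 minus Apoa2 was -0.25, -0.46 and -0.30 on fasted arrays, -1.38, -0.77 and -0.07 on high-fat arrays, and -0.38, -0.23, -0.28 and -0.18 on control arrays. The high-fat mean differed from control by -0.47 (exact permutation p = 0.286) and the fasted mean by -0.07 (exact p = 0.4). The difference between the genes' responses was therefore not resolved with these arrays. High-fat array 1 held the widest gap, with Apoa1 at 1.03 and Apoa2 at 2.41. On that array albumin (Alb) was at 2.74, transthyretin (Ttr) at 2.64, transferrin (Trf) at 2.80 and Apoe at 2.16.

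Of other genes of hepatocytes, few passed the test, and for most of the rest the direction in high-fat livers turned with the scaling. Of 40 hepatocyte markers, 14 could be tested, and between high-fat and control livers 13 of them were lower, with a median difference of -0.60 against 0.08 over all genes tested. Only Cyp3a11, a drug-metabolising cytochrome, fell past the threshold there, where limma called 1.97% of all genes lower. Between fasted and control livers 12 of 14 were lower, with a median of -0.49 against 0.02 over all genes. Cyp3a11 and Ttr fell past the threshold in that comparison, where limma called 1.04% of all genes lower. The Ttr difference was -1.38 (SE 0.24, adjusted p = 0.0216 by limma), and with one spread it was -1.26 and no longer called (adjusted p = 0.239). Alb, the most abundant plasma protein, differed by -0.77 between fasted and control livers (adjusted p = 0.137 by limma) and by -0.69 between high-fat and control livers (adjusted p = 0.145), which was 0.29 with one spread. With one spread, 9 of the 14 markers were higher and 5 lower between high-fat and control livers, with a median of 0.13. Between fasted and control livers 11 were then lower, with a median of -0.42. In whole liver, fewer hepatocytes and less RNA per hepatocyte cannot be told apart.

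Within each array, both genes were compared with the median of the 12 hepatocyte markers that had a value on all 10 arrays. That median was 1.13, 1.41 and 1.32 on fasted arrays, 1.11, 0.97 and 1.59 on high-fat arrays, and 0.95, 2.88, 1.80 and 1.50 on control arrays. Apoa1 minus the marker median was 0.24, 0.07 and 0.31 in fasted, -0.08, 0.29 and 0.29 in high-fat, and 1.45, 0.21, 0.36 and 0.45 in control livers. The groups overlapped. Its difference from control was -0.41 in fasted (exact permutation p = 0.171) and -0.45 in high-fat livers (exact p = 0.229), and without control array 1 these were -0.13 and -0.17. Apoa2 minus the marker median was 0.49, 0.53 and 0.61 in fasted, 1.30, 1.06 and 0.36 in high-fat, and 1.83, 0.44, 0.64 and 0.63 in control livers. Its difference from control was -0.34 in fasted (exact p = 0.457) and 0.02 in high-fat livers (exact p = 1.0), and without control array 1 these were -0.025 and 0.34. After quantile normalisation the fasted and control arrays did not overlap for either gene, with differences of -0.45 for Apoa1 and -0.46 for Apoa2 (exact p = 0.0571 for each, the smallest possible). The closest fasted and control arrays nearly touched on that scale, at 0.310 and 0.316 for Apoa1 and at 0.576 and 0.603 for Apoa2. Control array 1 stood high for both genes, at 1.37 and 1.74 after quantile normalisation.

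**Figure D4:**
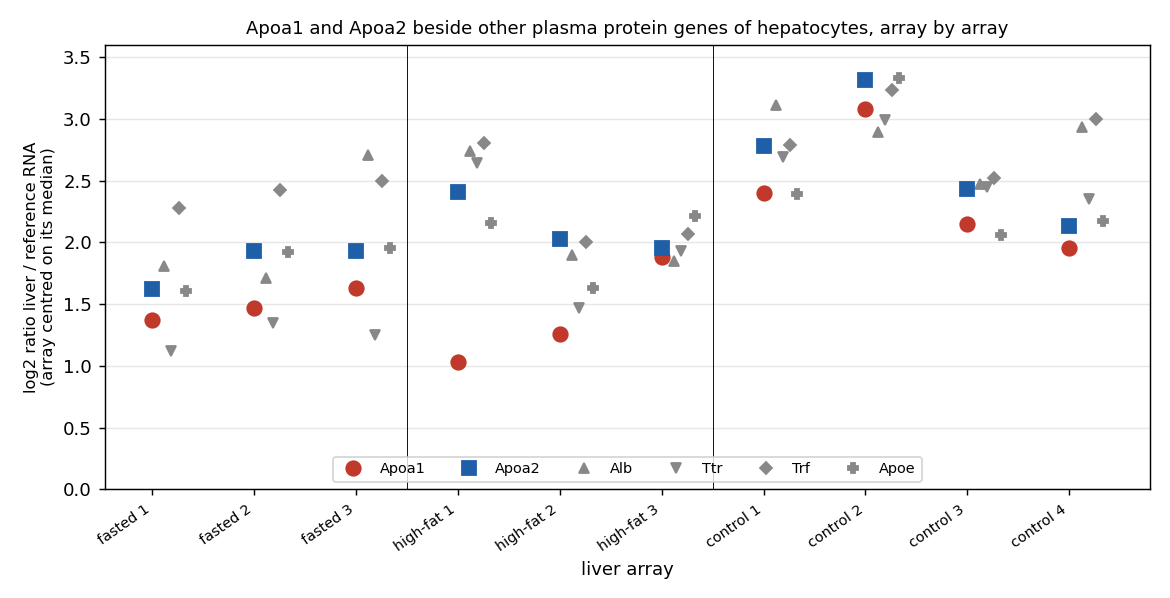
Centred log2 ratio of Apoa1, Apoa2 and 4 other plasma protein genes of hepatocytes (Alb, Ttr, Trf and Apoe) on each of the 10 arrays, with fasted, high-fat and control arrays from left to right. Apoa1 is far below the others on high-fat array 1, at 1.03, and Apoa1 and Apoa2 are both highest on control array 2.

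Markers of cell types other than hepatocytes were sparse. Of 87 such genes, 17 could be tested, and none passed the threshold between high-fat and control livers in limma, with 7 at an unadjusted p under 0.05 (25.2% over all genes). Their mean level per array was -0.23 to -0.14 in fasted, -0.14 to 0.03 in high-fat and -0.47 to -0.15 in control livers. Kdr, a receptor of endothelial cells, rose by 0.90 between fasted and control livers (SE 0.15, adjusted p = 0.0181 by limma), where limma called 2.16% of genes higher. With one spread its adjusted p was 0.0507, and Tie1, the other endothelial marker tested, differed by -0.09 (adjusted p = 0.892). The part of other cell types in the apolipoprotein differences was not tested. The median of the hepatocyte markers was well above the array median on every array.

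Genes that build, remodel, take up or control HDL were covered only in part. Of 81 such genes in 5 lists, 44 had a value on any array and 16 could be tested. None of the 16 passed the threshold in limma in any of the 3 comparisons. At an unadjusted p under 0.05, high-fat against control livers had 5 of the 16, where the share over all genes was 25.2%. Fasted against high-fat livers had 2 of the 16 (14.6% over all genes), and fasted against control livers also had 2 (20.4% over all genes). Their median difference was -0.07 between high-fat and control livers, against 0.08 over all genes, and -0.12 between fasted and control livers, against 0.02. With one spread the high-fat median turned to 0.069, against 0.072 over all genes. The fasted median was then -0.095, against 0.013. Genes of ABCA1 and LCAT themselves were not among the tested genes.

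Among apolipoproteins that share lipid with HDL, Apoe, a ligand for remnant uptake, and Apoc3, an inhibitor of lipoprotein lipase, could be tested. Apoe differed by -0.66 (SE 0.27, adjusted p = 0.192 by limma) between fasted and control and by -0.49 (SE 0.27, adjusted p = 0.281) between high-fat and control livers, which was 0.36 with one spread. Apoc3 is the next gene to Apoa1 on chromosome 9. It had 0.58, 0.49 and 0.79 on fasted arrays, 0.54, 0.65 and 0.67 on high-fat arrays, and 0.76, 1.50, 0.97 and 0.63 on control arrays. Its groups overlapped, and its difference from control was about -0.35 in fasted (SE 0.19, adjusted p = 0.320 by limma) and in high-fat livers (adjusted p = 0.271). Apoa4 and Apoa5, the other apolipoproteins of that cluster, had a value on 5 and 7 of the 10 arrays and were not tested. Apoa4, a chylomicron and HDL protein, was at 0.51 on 1 fasted array, at 1.31, 1.03 and 1.69 on the high-fat arrays, and at 0.49 on 1 control array. Apoa5 was at 0.71, 0.13 and -0.03 on fasted arrays and at -0.72 on high-fat array 3. On control arrays 2, 3 and 4 it was at 2.05, 0.78 and 0.27.

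Among the other HDL genes, Saa2, an acute-phase protein that rides on HDL, had the lowest adjusted p. It was at -0.80, -0.82 and -0.90 on fasted arrays, -0.36, -0.66 and -0.61 on high-fat arrays, and -0.99, -0.74, -1.24 and -0.95 on control arrays. Every high-fat array was above every control array, as for 16.6% of genes, with a difference of 0.44 (SE 0.14, adjusted p = 0.0827 by limma). With one spread the groups overlapped and the difference was 0.23 (adjusted p = 0.378 by limma). Scarb1, the receptor that takes cholesterol ester from HDL, differed by -0.12 between high-fat and control livers (adjusted p = 0.771), or by 0.01 with one spread. Cubn, a receptor that binds apolipoprotein A-I in kidney, was at 0.16, 0.30 and 0.26 on fasted arrays and at 1.07, 0.67 and 0.73 on high-fat arrays. The control arrays ranged widely, at 0.96, 0.65, 0.35 and 0.08. Between fasted and high-fat livers the Cubn difference was -0.58 (SE 0.20, adjusted p = 0.235 by limma).

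P4hb, a subunit of the microsomal triglyceride transfer protein and an enzyme of protein folding, was at 2.62, 2.81 and 4.19 on fasted arrays, 1.83, 4.62 and 2.70 on high-fat arrays, and 0.27, 2.62, 1.21 and 2.09 on control arrays. Its difference from control was 1.66 in fasted (SE 0.66, adjusted p = 0.182 by limma) and 1.50 in high-fat livers (SE 0.66, adjusted p = 0.180), opposite in sign to Apoa1. Of the factors known to act on these promoters, Usf2, Nr2f2 and Cebpa could be tested. Usf2, which binds the E-box, differed by -0.26 between high-fat and control livers (SE 0.11, adjusted p = 0.180 by limma).

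Across the 10 arrays, Apoa1 and Apoa2 correlated at r = 0.78 (permutation p = 0.00942, adjusted over 6 tests 0.0565) and at rho = 0.62 (permutation p = 0.0621, adjusted 0.0932). Without high-fat array 1 and control array 2, the 2 arrays whose Apoa1 value lay furthest from its median, r was 0.85 over 8 arrays. With one spread r was 0.42 (permutation p = 0.231) and rho 0.70 (permutation p = 0.0304, adjusted 0.0912). After quantile normalisation r was 0.53 (permutation p = 0.119). On these 2 scales the arrays furthest from the Apoa1 median were control arrays 1 and 2. Without them r was 0.30 with one spread and 0.27 after quantile normalisation. For the centred values with each group's mean taken off, r was 0.57. The arrays share the reference RNA and the centring, and no group held enough arrays for a value of its own.

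The genes whose values followed Apoa1 most closely, by Pearson's r over the 10 arrays among genes with a symbol and a value on all of them, were Tuba4a (0.96), Tmem37 (0.93), Gstm1 (0.92), Capg (0.92) and Traf4 (0.92). Those closest to Apoa2 were Kcnk4 (0.94), Spdef (0.91), Mpnd (0.91), Nol9 (0.89) and Hgfac (0.89). Apoa2 held place 75 in the list for Apoa1, and Apoa1 held place 40 in the list for Apoa2. With one spread, r was 0.90 for Tuba4a with Apoa1, and Spdef with Apoa2 was at 0.37 while Hgfac was at 0.93. These values describe the arrays and carry no test.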

How the data were processed

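Livers of mice were hybridised with a common reference RNA on 2-colour cDNA arrays, per the labels. The authors deposited 1 log ratio per spot and array, taken as log2 of liver over reference; the base, background correction, normalisation and spot filter are not stated in the sources used here, so the filter behind empty spots is unknown. Spots were named from the platform's probe table: 14718 had 1 symbol, 1 had several and 2561 had none. Each array was centred on its median, spots of a gene were averaged, and genes filled on 2 or more arrays in each group were fitted in limma 3.58.1 (R 4.3.3), 1 mean per group. p-values were adjusted by Benjamini-Hochberg within a comparison and called under 0.05. Exact two-sided permutation tests used scipy 1.17.1. The number of arrays limits the precision. High-fat array 4 was left out. Arrays are single mice by their labels; whether they were processed in batches is not stated in the sources used here. The fit was tested on simulated data.

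The members and lists were chosen with earlier results of these data known. Named genes were both apolipoproteins, the list genes called or with the highest mean level (up to 3 per list), Alb, Ttr and Trf, and the 5 genes most correlated with each apolipoprotein. Cyp3a11, Kdr, Apoa4 and Apoa5 were named after their values were seen. Replicate numbers were not taken to pair the arrays: correlations of same-numbered deviations were -0.18 to 0.18. Arrays of different numbers were not compared in this way, so pairing was not excluded. Alternatives were one spread, quantile normalisation, values as deposited, another centring, all 11 arrays, stricter filters, 2 groups only, a replicate block and leaving out each array. Control array 4 was alone in its replicate block, so the block gave the same differences as leaving that array out. Promoters are from RefSeq, GRCm38.p6, in which both genes matched by symbol.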

Additional observations from a re-analysis of the deposited data

Results flagged for a closer look

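On 1 of the 4 control arrays, Apoa2 stood far from the others relative to the hepatocyte markers: control array 1 was 1.83 above the marker median, and the other control arrays were 0.44 to 0.64 above it, a gap of 0.857 of the group's range. For Cebpa, control array 2 was at 1.02 and the other control arrays at -0.31 to -0.19, a gap of 0.91 of the range. The critical share for 4 arrays is 0.829, 19 groups of 4 were examined, and chance alone flags about 1 in 20.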

How the results depend on the processing

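Alternatives moved the calls more than the directions. Genes called between high-fat and control livers numbered 175 (105 higher, 70 lower), 86 with values as deposited (35 and 51), 23 with only the 2 groups and 22 to 190 with an array left out. One spread gave 101 higher and 24 lower, quantile normalisation 137 and 22, and centring on shared spots 55 and 82. Between fasted and high-fat livers 13 genes (3 higher, 10 lower) became 24 with quantile normalisation (3 and 21), 3 with all 11 arrays, 7 with a value on all 10 arrays, 53 with only the 2 groups, 4 with the replicate block and 3 to 23 with an array left out; one spread gave 0 and 15, and deposited values 11 and 5. Between fasted and control livers 114 genes (77 and 37) became 10 with one spread (8 and 2), 198 as deposited (180 and 18), 25 with all 11 arrays, 57 with only the 2 groups and 5 to 157 with an array left out; quantile normalisation gave 72 and 14, shared spots 39 and 52. For both high-fat diet groups against control, 290 (174 and 116) became 124 with one spread (96 and 28), 109 with all 11 arrays and 93 to 309 with an array left out; quantile normalisation gave 181 and 38, deposited values 167 and 68, and shared spots 85 and 151. Deposited values moved the median of all genes to 0.16 for fasted minus high-fat and 0.21 for fasted minus control.

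The Apoa1 difference between high-fat and control livers stayed negative and missed the threshold with one spread (-0.44), quantile normalisation (-0.37), centring on shared spots (-1.08), all 11 arrays (-1.01), only the 2 groups (-1.01) and the replicate block (-1.15, adjusted p = 0.0508 by limma); it was -1.25 to -0.78 with an array left out. Against control, the 2 high-fat diet groups together missed the threshold with one spread (-0.63) and quantile normalisation (-0.51), and gave -1.10 to -0.73 with an array left out. The fasted Apoa1 difference from control was -1.05 to -0.68 with an array left out. Between fasted and high-fat livers the Apoa1 sign turned with one spread (-0.37), quantile normalisation (-0.28) and without high-fat array 1 (-0.08, range to 0.35).

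For Apoa2, high-fat minus control turned positive with one spread (0.40) and quantile normalisation (0.011). The fasted difference from control was -1.01 to -0.62 with an array left out. It passed with the replicate block (-1.01, adjusted p = 0.0472 by limma), where the difference is the one found without control array 4. For both high-fat diet groups the difference from control passed with a value on all 10 arrays (-0.68) and with the replicate block (-0.86). That difference was -0.86 to -0.47 with an array left out, -0.17 with one spread and -0.32 with quantile normalisation.

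Within arrays, quantile normalisation turned Apoa1 minus Apoa2 between fasted and control livers (0.0059), Apoa1 minus the marker median between fasted and high-fat livers (-0.00026; -0.085 to 0.11 with an array left out, -0.01 without fasted array 3) and Apoa2 minus the marker median between high-fat and control livers (-0.066; -0.17 to 0.34, including -0.13, -0.06, -0.06 and -0.05). For both high-fat diet groups, Apoa2 minus the marker median was 0.038 with one spread and -0.31 to 0.16 with an array left out, and Apoa1 minus it was -0.57 to -0.15. All 11 arrays gave no within-array value, because both genes are empty on high-fat array 4. The cause of these shifts was not tested.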
